A study of Rattus norvegicus with 26 samples.

Results

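The miRNAs that mark white blood cells were followed in the remnant livers of rats after partial hepatectomy (PH). They were chosen by name: rno-miR-142-3p, rno-miR-142-5p, rno-miR-223, rno-miR-150, rno-miR-146a and rno-miR-155. Of these 6 miRNAs, 5 had probes among the 677 rat miRNAs of the array, 4 were detected and tested among 144 miRNAs in all, and 3 were detected on every array. rno-miR-155 was not analysed here.

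All animals were male Sprague-Dawley rats, and each array held total RNA from the right liver lobe of 1 rat. The groups were normal liver without resection (3 rats), 1/3 PH at 6 h (2 rats), 12 h, 24 h and 36 h (3 rats each), and 2/3 PH at 6 h, 12 h, 24 h and 36 h (3 rats each). The 1/3 PH removed the left lateral lobe and served as the control operation for 2/3 PH at the same hour. The normal livers are described as livers without PH, although a protocol label calls them sham. The source labels of some arrays give a time that is 1 or 2 h later than the title. The labels name no agent and no altered allele in any group. The age of the rats and whether the livers were flushed of blood are not given in the sources used here.

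White blood cells carry a small set of miRNAs that parenchymal cells hold at low levels or not at all. miR-142 is made from a single hairpin in almost all cells of the blood-forming lineage, miR-223 is abundant in neutrophils and other myeloid cells, and miR-150 is abundant in mature lymphocytes. miR-146a and miR-155 are induced by NF-kB signalling in activated immune cells, where miR-146a restrains the adaptor proteins TRAF6 and IRAK1. The liver holds resident macrophages (Kupffer cells), lymphocytes in the sinusoids and circulating blood, and the response of Kupffer cells is among the early events after hepatectomy. In RNA from a whole lobe, fewer cells of a type and less RNA per cell cannot be told apart.

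The mature sequences of the miRNAs that the results turn on are shown because the array reads each through the mature strand, and because their seeds (bases 2 to 8, in capitals) show which of them could act on the same targets. The sequences are those of RefSeq (GRCr8), which matched 4 of the 5 miRNAs with probes. rno-miR-150 is named only.
rno-miR-142-3p: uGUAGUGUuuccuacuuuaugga
rno-miR-142-5p: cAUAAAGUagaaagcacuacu
rno-miR-223: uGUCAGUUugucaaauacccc
rno-miR-146a: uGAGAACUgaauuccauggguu
rno-miR-146b: uGAGAACUgaauuccauaggcugu
The 4 seeds of the members differed from each other. Among 693 mature rat miRNAs of the table, none shared the seed of miR-142-3p, miR-142-5p or miR-223. The seed of miR-146a was shared by miR-146b, a miRNA that is not in the set and is printed beside it for that reason. miR-146b was detected on 4 of 26 arrays.

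Both arms of miR-142 come from a hairpin at chr10:73055104-73055190, whose transcript is shown because its arms differed in detection. Capitals mark the mature arms, the 5p arm at bases 16 to 36 and the 3p arm at bases 52 to 74.
rno-mir-142: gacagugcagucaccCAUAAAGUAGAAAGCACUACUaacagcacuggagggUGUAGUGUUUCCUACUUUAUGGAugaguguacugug
The gene lies within the span of Tspoap1. The gene of miR-223 lies on chromosome X, with its mature strand at chrX:65151450-65151470, and that of miR-146a on chromosome 10, with its mature strand at chr10:28350053-28350074 on the minus strand. Both lie within the span of a long non-coding RNA gene. The gene of miR-150, at chr1:104741487-104741571, lies in the span of no other gene of the table.

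A level here is the scaled signal: the summed background-corrected signals of a miRNA's probes, divided by the array's 75th percentile over 109 probes that stood above background on all 26 arrays. The floor of an array was the lowest signal among all probes above background on that array, shared or not. Signals below it were set to that floor, which was 6.36 to 20.2 on 25 arrays. Detection is the call of the scanner software. On these 25 arrays 118 to 155 miRNAs were detected, whereas on replicate 2 of 1/3 PH at 12 h 91 were detected, with a total signal of 18196 against 58458 to 95463 elsewhere and a floor of 24.3. That array is given with and without where a result rests on it. Hepatocyte markers miR-122, miR-192 and miR-194 were detected on all 26 arrays. Signals of different miRNAs depend on their probes and are not set against each other.

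miR-142-3p, miR-223 and miR-146a were detected on 26 of 26 arrays and miR-150 on 25, all but the low-signal array. miR-142-5p was detected on 0 of 26. Each miRNA had 2 probes of 10 spots per array, which gave 260 spots per probe. For miR-223, 260 and 259 of these spots were well above background, and for miR-146a 260 and 220. The probes of miR-142-3p reached 249 and 134, and those of miR-150 224 and 9. For miR-142-5p, 4 and 3 spots of 260 were well above background. The levels of miR-150 thus rested on 1 probe, while those of the others detected rested on 2. No spot of these probes was saturated.

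**Figure D1:**
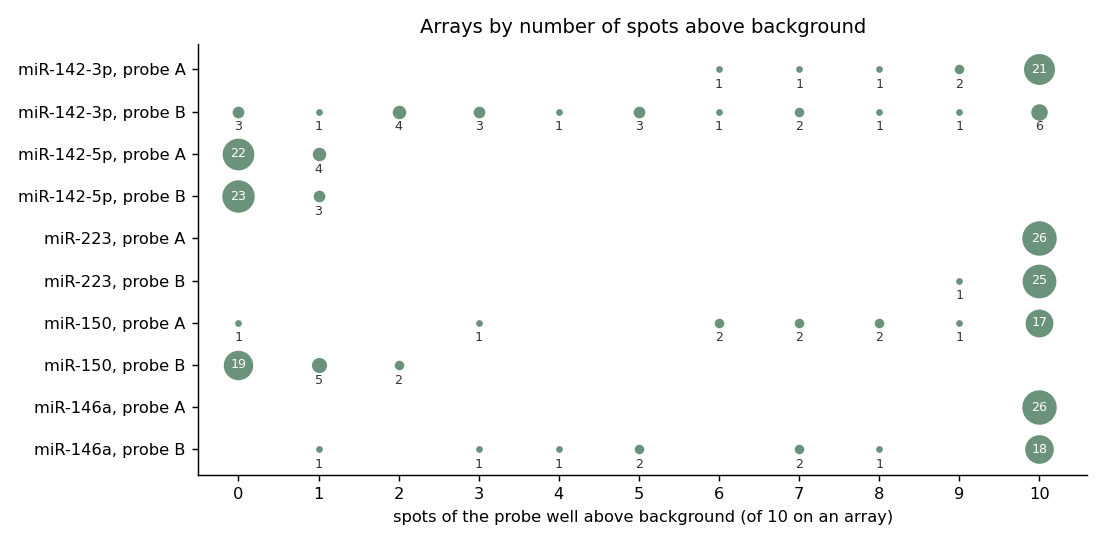
Number of the 10 spots of a probe that were well above background (x axis), with the area of a dot and the number in or beside it giving how many of 26 arrays had that count; probe A is the probe of each miRNA with more spots above background. The probes of miR-223 sit at the right end, those of miR-142-5p at the left end, and miR-150 has 1 probe on each side.

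The other arms of the same hairpins were not detected for miR-142 (5p), miR-223 (miR-223*) and miR-146a (miR-146a*), each on 0 of 26 arrays. miR-150* was detected on 25 of 26 arrays, at a scaled signal of 28.1 to 88.2 with a median of 53.3. Over the 25 arrays on which miR-150 was detected, the levels of the 2 arms of miR-150 had a Pearson r of -0.15, given as a description. miR-150* passed the test in 0 of 15 comparisons. Its log2 difference from normal liver was 0.08 at 24 h and 0.48 at 36 h after 2/3 PH (adjusted p = 0.454 at 36 h, by limma), the times at which miR-150 fell (below).

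miR-142-3p, the pan-leukocyte miRNA, was highest in normal liver. Its scaled signal was 48.1, 70.4 and 55.1 in the 3 normal livers. After 1/3 PH it was 54.0 and 40.4 at 6 h, 30.9998, 44.3 and 27.0 at 12 h, 33.6, 35.7 and 53.1 at 24 h, and 55.1, 37.1 and 44.2 at 36 h. After 2/3 PH it was 36.0, 29.9 and 37.0 at 6 h, 23.8, 40.3 and 49.98 at 12 h, 22.96, 37.8 and 24.2 at 24 h, and 36.8, 35.1 and 41.5 at 36 h. Of the 23 operated livers, 19 lay below the lowest normal liver and 0 above the highest, 8 of 11 after 1/3 PH and 11 of 12 after 2/3 PH. How many of all miRNAs had as many operated livers outside the normal range was not counted. In single groups, values apart from normal liver were found for 34% of miRNAs tested at 24 h and 43.8% at 36 h after 2/3 PH. The lowest group was 2/3 PH at 24 h, at 28.3 ± 8.24 (SD, n = 3) against 57.8 ± 11.4 (n = 3) in normal liver. In the order of the group means, each group overlapped its neighbours.

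miR-150, the lymphocyte miRNA, was also highest in normal liver, at 24.9, 27.5 and 27.2. After 1/3 PH it was 19.8 and 18.2 at 6 h, 21.3 and 20.2 at 12 h on the arrays where it was detected, 17.1, 19.3 and 20.9 at 24 h, and 21.7, 18.5 and 16.5 at 36 h. After 2/3 PH it was 24.6, 20.2 and 20.6 at 6 h, with the second of these at its array's floor, 18.7, 31.7 and 29.8 at 12 h, 17.9, 18.3 and 16.9 at 24 h, and 15.4, 16.3 and 15.9 at 36 h. All 11 livers after 1/3 PH lay below the lowest normal liver, counting the array where it was not detected at its floor of 24.3. After 2/3 PH 10 of 12 livers lay below, and the other 2, both at 12 h, lay above the highest. The values at 36 h after 2/3 PH, 15.9 ± 0.47 (SD, n = 3), were all below those at 24 h, 17.7 ± 0.70 (n = 3), and this was the only pair of neighbours in the order of group means, over the 4 miRNAs, whose values did not overlap. Among miRNAs tested, 1.39% lay outside the range of normal liver on one side on all 1/3 PH arrays, which is 2 of 144 with miR-150 among them, and 0% did so on all 2/3 PH arrays.

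miR-146a, the NF-kB-induced miRNA, moved both above and below normal liver, where it was 81.4, 86.0 and 68.6. After 1/3 PH it was 70.7 and 82.8 at 6 h, 87.9, 74.4 and 83.9 at 12 h, 61.3, 76.7 and 68.3 at 24 h, and 109, 69.3 and 85.9 at 36 h. After 2/3 PH it was 101, 99.3 and 90.9 at 6 h, 88.7, 106 and 89.8 at 12 h, 64.6, 73.2 and 46.9985 at 24 h, and 49.3, 77.8 and 74.8 at 36 h. All 6 livers at 6 h and 12 h after 2/3 PH lay above the highest normal liver, whereas those at 24 h and 36 h overlapped the normal livers or lay below them. How many of all miRNAs were separated from normal liver at 6 h or 12 h was not counted. Group means after 2/3 PH were 97.0 ± 5.28, 94.8 ± 9.67, 61.6 ± 13.4 and 67.3 ± 15.7 (SD, n = 3 each) in order of time, against 78.7 ± 9.01 (n = 3) in normal liver.

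miR-223, the myeloid miRNA, was 66.95, 72.6 and 58.6 in normal liver. After 1/3 PH it was 91.0 and 99.9 at 6 h, 57.9, 121 and 79.1 at 12 h, 66.2, 67.04 and 90.0 at 24 h, and 84.3, 58.1 and 56.0 at 36 h, the value of 121 being that of the low-signal array. After 2/3 PH it was 81.4, 64.4 and 75.5 at 6 h, 60.4, 77.3 and 78.9 at 12 h, 45.8, 59.0 and 63.9 at 24 h, and 85.6, 61.97 and 65.7 at 36 h. Of the operated livers, 4 lay below the lowest normal liver and 11 above the highest. Both livers at 6 h after 1/3 PH lay above all normal livers, at a mean of 95.4 ± 6.32 (SD, n = 2) against 66.1 ± 7.07 (n = 3), and 2/3 PH at 24 h was the lowest group, at 56.2 ± 9.40 (n = 3). Neither the counts of operated livers outside the normal range nor such separation at 6 h after 1/3 PH was taken over all miRNAs.

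**Figure D2:**
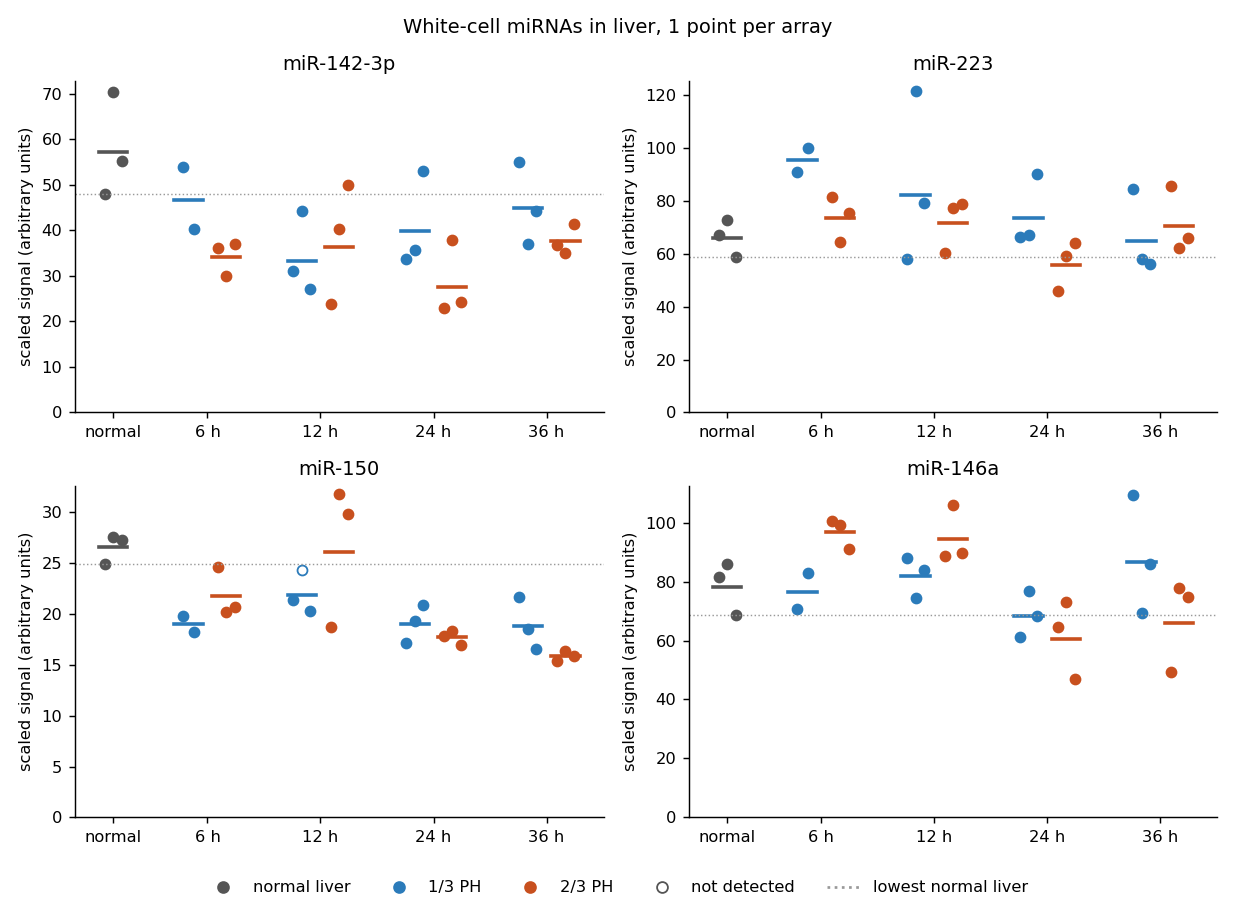
Scaled signal (y axis, linear from 0) of each miRNA on each array, by group (x axis); points are arrays, bars are geometric means, open circles mark an array where the miRNA was not detected, and the dotted line is the lowest normal liver. miR-142-3p and miR-150 sit mostly below the dotted line after either operation, and miR-146a is above normal liver at 6 h and 12 h after 2/3 PH.

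To ask which of these differences exceeded the spread between rats, each operation and time was set against normal liver by limma, with p-values adjusted over the 144 miRNAs of each comparison. Of the 4 miRNAs, miR-142-3p and miR-150 fell at 24 h after 2/3 PH and miR-150 also fell at 36 h, and these 3 were the tests passed out of 32. At 24 h, miR-142-3p fell to 0.483 of normal liver (95% interval 0.328 to 0.712; log2 difference -1.05, SE 0.267, adjusted p = 0.0126). miR-150 fell to 0.667 of normal liver at 24 h (interval 0.531 to 0.836; log2 difference -0.58, SE 0.156, adjusted p = 0.0138). At 36 h it stood at 0.598 (interval 0.477 to 0.750; log2 difference -0.74, SE 0.156, adjusted p = 0.00247). In each of these the 3 operated livers all lay below the 3 normal livers.

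The 2 calls at 24 h stand beside 18.1% of all miRNAs called in that comparison, and the call at 36 h beside 18.8%. Ranges that did not overlap normal liver were found for 34% of miRNAs tested at 24 h and 43.8% at 36 h. The 4 log2 differences were all negative at 24 h, with a median of -0.48 against 0.047 over all miRNAs tested. At 36 h 3 of 4 were negative, with a median of -0.42 against 0.061.

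The call of miR-142-3p at 24 h did not hold without replicate 1 of 2/3 PH at 24 h (adjusted p = 0.0670) or replicate 3 (0.0558). The same arrays carried the call of miR-150 at 24 h, with an adjusted p of 0.0525 and 0.0597 without them, as did normal replicate 3 (0.0514). The call of miR-150 at 36 h held without any single array. By probe, the brighter probe of miR-142-3p gave a log2 difference of -1.05 (adjusted p = 0.0161) and the dimmer probe -0.63 (adjusted p = 0.139). The dimmer probe read 13.9, 22.8 and 18.1 in normal liver and 7.64, 10.3 and 8.13 in 2/3 PH at 24 h. The latter all lay below their arrays' floors of 8.63, 13.4 and 13.2. The value of -0.63 thus sets normal liver against the floor and does not measure the fall at that probe.

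The arrays had been run on 6 slides and read on 3 scan days, 17 of them on the first. No slide held both normal liver and 2/3 PH at 24 h. On the first scan day, with 1 normal liver and the 3 livers of 2/3 PH at 24 h, the log2 difference was -0.80 for miR-142-3p and -0.49 for miR-150. With scan day as a block, miR-142-3p differed by -0.79 at 24 h (adjusted p = 0.0327) and by -0.68 at 36 h (adjusted p = 0.0354), while miR-150 differed by -0.79 at 36 h (adjusted p = 0.0023) and by -0.49 at 24 h (adjusted p = 0.065). With slide as a random block all 3 calls held. With slide as a fixed block the comparison at 24 h could not be estimated, and miR-150 at 36 h differed by -0.78 and lost its call (adjusted p = 0.0516). For miR-150 at 36 h, the log2 difference was -0.78 within the second scan day (2 livers against 1) and -0.79 within the third (1 against 1).

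At the other times after 2/3 PH none of the 4 miRNAs passed the test. miR-142-3p stood at 0.598 of normal liver at 6 h, 0.636 at 12 h and 0.660 at 36 h (adjusted p = 0.214, 0.175 and 0.122 by limma). miR-146a stood at 1.24 and 1.21 times normal liver at 6 h and 12 h (adjusted p = 0.568 and 0.483). Its values did not overlap normal liver, but the share of all miRNAs without overlap was not counted at these hours. The background was 0% of miRNAs called at 6 h, with 15 at an unadjusted p under 0.05, and 6.94% at 12 h.

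After 1/3 PH none of the 4 miRNAs passed the test at any time, where the background was 0% at 6 h, 4.17% at 12 h, 0.694% at 24 h and 0% at 36 h. The comparisons of 0% had 8 miRNAs at 6 h and 7 at 36 h with an unadjusted p under 0.05. miR-150 stood at 0.716 of normal liver at 6 h, 0.717 at 24 h and 0.708 at 36 h, with adjusted p = 0.765, 0.148 and 0.342. At 12 h it stood at 0.824 (adjusted p = 0.249 by limma), with 1 of 3 values only the floor of 24.3. miR-142-3p stood at 0.584 at 12 h, and its adjusted p was 0.0804. Its groups did not overlap, a property not counted over all miRNAs at that hour. miR-223 stood at 1.45 times normal liver at 6 h (95% interval 1.00 to 2.09, adjusted p = 0.765). For miR-150 at 6 h, 24 h and 36 h and miR-142-3p at 12 h, the 95% intervals reached from 0.397 to 0.923. Each held the ratios called after 2/3 PH for the same miRNA. The interval of miR-150 at 12 h, 0.657 to 1.03, held the ratio called at 24 h but not that at 36 h. All of these comparisons share the 3 normal livers.

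**Figure D3:**
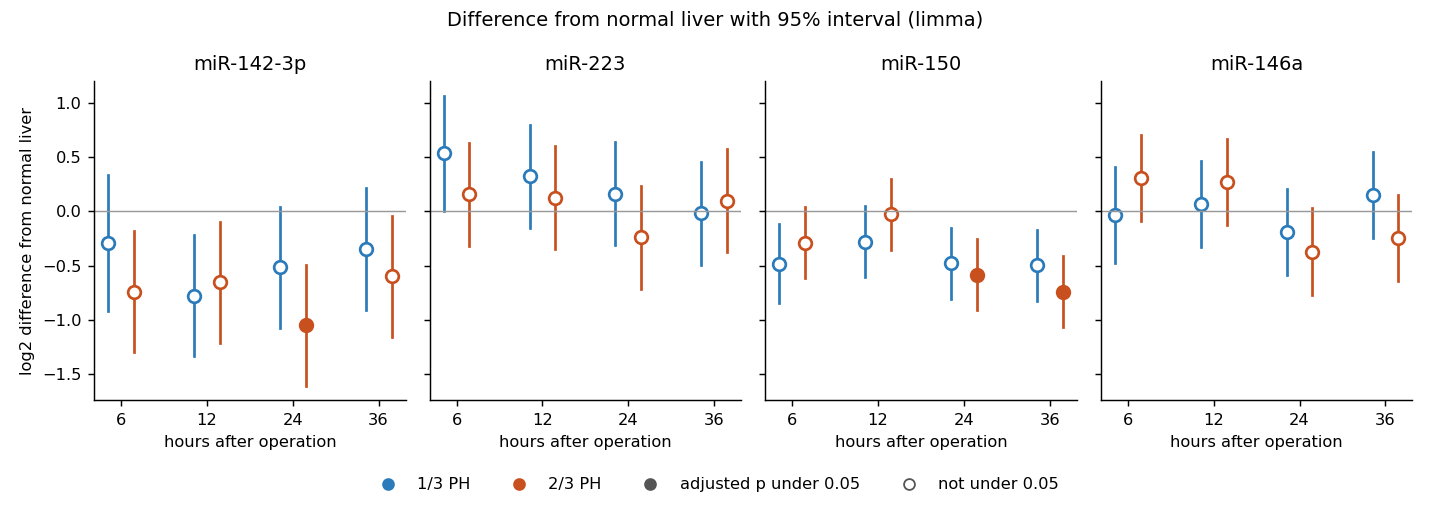
log2 difference from normal liver (y axis) by hour after the operation (x axis), for 1/3 PH and 2/3 PH; bars are 95% intervals from limma, and filled points have an adjusted p below 0.05. The filled points are miR-142-3p at 24 h and miR-150 at 24 h and 36 h, all after 2/3 PH. At 12 h after 1/3 PH, 1 of 3 values of miR-150 is only its array's floor.

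Direct comparison of 2/3 PH with 1/3 PH at the same hour asked whether the extent of resection mattered. None of the 4 miRNAs passed the test at any hour, against a background of 0% at 6 h, 0% at 12 h, 2.78% at 24 h and 15.3% at 36 h. At an unadjusted p under 0.05, 3 miRNAs of all tested were counted at 6 h and 9 at 12 h, and none of the 4. At 24 h miR-142-3p stood at 0.691 of its level after 1/3 PH (95% interval 0.469 to 1.02) and miR-223 at 0.756 (interval 0.544 to 1.05). At 36 h miR-146a stood at 0.761 (interval 0.578 to 1.00, adjusted p = 0.211) and miR-150 at 0.845 (interval 0.674 to 1.06). The falls from normal liver after 2/3 PH are thus not shown to differ from the differences after 1/3 PH.

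The course from 6 h to 36 h does not use the normal livers. After 2/3 PH, miR-146a and miR-150 were lower at 36 h than at 6 h. miR-146a fell to 0.681 of its level at 6 h (95% interval 0.517 to 0.896; log2 difference -0.55, adjusted p = 0.0319). miR-150 fell to 0.731 (interval 0.582 to 0.916; log2 difference -0.45, adjusted p = 0.0330). Its value on replicate 2 at 6 h was the array's floor of 20.2, above its brighter probe's signal of 16.6. The floor thus raised the 6 h mean of miR-150. For both miRNAs, the 3 livers at 36 h lay below the 3 livers at 6 h. The share of all miRNAs separated in this way was not counted. In this comparison 28.5% of miRNAs were called. The median log2 difference of the 4 was -0.26, against -0.038 over all miRNAs tested. miR-142-3p stood at 1.10 and miR-223 at 0.959 of their levels at 6 h, neither past the test.

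Both calls depended on single arrays. The adjusted p of miR-146a was 0.0897, 0.0672 and 0.0519 without replicate 1, 2 and 3 of 2/3 PH at 6 h, and 0.212 without replicate 1 at 36 h, where the log2 difference was -0.34. That of miR-150 was 0.145 and 0.0536 without replicate 1 and 3 at 6 h, and 0.0987, 0.0593 and 0.0711 without replicate 1, 2 and 3 at 36 h. With scan day as a block miR-146a differed by -0.33 (adjusted p = 0.39) and miR-150 by -0.55 (adjusted p = 0.0484). With slide as a random block both calls were lost (adjusted p = 0.0882 for miR-146a and 0.0605 for miR-150), as they were with slide as a fixed block (adjusted p = 0.80 and 0.423). Within the third scan day, the only scan day to hold both groups, the log2 difference of 1 liver against 1 was -0.28 for miR-146a and -0.38 for miR-150.

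After 1/3 PH none of the 4 differed between 36 h and 6 h, where 0% of all miRNAs were called and 13 had an unadjusted p under 0.05. miR-223 stood at 0.681 of its level at 6 h (95% interval 0.471 to 0.985, adjusted p = 0.501). The change over time was then compared between the operations as an interaction, in which 4.17% of miRNAs were called and none of the 4. The log2 interaction was -0.74 for miR-146a (SE 0.285, adjusted p = 0.188), -0.44 for miR-150, 0.49 for miR-223 and 0.20 for miR-142-3p.

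Of 12 other miRNAs known from immune cells or their activation, 4 were tested, and 2 of these passed the test in some comparison, in opposite directions. The 4 were miR-21, miR-181a, miR-212 and miR-342-3p. These calls stand beside 18.1% and 18.8% of all miRNAs called at 24 h and 36 h after 2/3 PH, 15.3% between the operations at 36 h and 28.5% between 36 h and 6 h. miR-21, which is induced in many activated and proliferating cells, rose after 2/3 PH by a log2 difference of 0.61 at 24 h (adjusted p = 0.0326) and 0.65 at 36 h (adjusted p = 0.0142). miR-181a, which tunes signalling in developing lymphocytes and is also found in other cells, fell by 0.72 on the log2 scale at 36 h (adjusted p = 0.0062). It also stood lower than after 1/3 PH at 36 h, by -0.56 (adjusted p = 0.0413), and lower than at 6 h after 2/3 PH, by -1.02 (adjusted p = 0.0003). miR-212 and miR-342-3p passed the test in none of the 15 comparisons, nor did any of the 4 after 1/3 PH.

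Markers of the other cells of the lobe were set beside the falls. Of the red-cell markers, miR-451 was detected on 26 arrays and miR-144 on 1, and miR-486 was not analysed here. Their summed scaled signal was 98.0 to 121 in normal liver, 61.0 to 120 at 24 h and 73.9 to 99.2 at 36 h after 2/3 PH. Markers not detected on an array entered this sum, and those of the other cell types below, at that array's floor. miR-451 differed from normal liver by -0.32 at 24 h (adjusted p = 0.671) and by -0.41 at 36 h (adjusted p = 0.502), on the log2 scale. At 6 h after 2/3 PH the difference was -0.87 (adjusted p = 0.405 by limma). Between 2/3 PH and 1/3 PH miR-451 differed by -1.39, 0.43, -1.11 and -0.19 at 6 h, 12 h, 24 h and 36 h. None of these passed the test (adjusted p = 0.791, 0.789, 0.173 and 0.748 by limma). For the 2 endothelial markers, miR-126 and miR-126*, the sum was 561 to 694 in normal liver, 525 to 586 at 24 h and 492 to 553 at 36 h, and miR-126 did not pass the test. Of the hepatocyte markers, miR-192 fell by 0.29 on the log2 scale at 24 h (adjusted p = 0.0374 by limma). At that time miR-122 differed by -0.09 (adjusted p = 0.671) and miR-194 by -0.004 (adjusted p = 0.985). miR-192 was also lower at 12 h after 1/3 PH (-0.41, adjusted p = 0.0117) and after 2/3 PH (-0.34, adjusted p = 0.0274). None of the 4 stellate and mesenchymal markers tested was called.

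Of the biliary epithelium markers tested, 2 of 3 rose at 24 h and 3 of 3 at 36 h after 2/3 PH. These calls stand beside 18.1% and 18.8% of all miRNAs called. Of 5 on the array, miR-200b was detected on 26 arrays, miR-429 on 22 and miR-200a on 21, while miR-200c and miR-141 were detected on 0. Their summed scaled signal was 50.4 to 87.5 in normal liver, 104.6 to 134 at 24 h and 117 to 166 at 36 h after 2/3 PH, with no overlap with normal liver at either time. At these times 34% and 43.8% of single miRNAs tested did not overlap normal liver. At 24 h miR-200b rose by 0.87 (adjusted p = 0.0437) and miR-429 by 1.08 (adjusted p = 0.0138), on the log2 scale, with miR-200a at 0.76 (adjusted p = 0.0875). At 36 h all 3 tested rose, by 0.90 for miR-200a, 1.34 for miR-200b and 1.28 for miR-429. At 24 h after 1/3 PH the sum was 107 to 134, also without overlap with normal liver, and at 36 h it overlapped, at 74.0 to 135. At 24 h miR-200a, miR-200b and miR-429 there differed from normal liver by 0.83, 0.93 and 0.95 (adjusted p = 0.204, 0.119 and 0.119 by limma). Between the operations at 24 h they differed by -0.07, -0.06 and 0.13, none past the test. At 12 h after 1/3 PH, where 4.17% of all miRNAs were called, miR-200b and miR-429 also rose (adjusted p = 0.0117 and 0.0334 by limma). The sum in this group was 132 to 192. This group holds the low-signal array, whose floor of 24.3 stood for each marker not detected on it, miR-200c and miR-141 among them. Neither the calls nor the sum is given without that array.

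Across 26 arrays, the level of miR-142-3p had r = 0.44 with that of the red-cell miRNA miR-451 (0.46 without the low-signal array), and r = -0.27 with the hepatocyte miRNA miR-122, given as a description. The r of miR-150 with miR-451 was 0.25 over 25 arrays. The part of blood content or cell composition in the falls of miR-142-3p and miR-150 was not tested.

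Whether the miRNAs of the set varied together from rat to rat was examined last. With the mean of each group removed, miR-142-3p and miR-223 rose and fell together over 26 arrays, with Pearson r = 0.62 (permutation p = 0.00712, adjusted p = 0.0214 over 3 pairs) and Spearman rho = 0.60 (permutation p = 0.0120, adjusted p = 0.0360). Without the 2 arrays farthest from the median of miR-142-3p, r was 0.60. The other pairs of miRNAs detected on all arrays gave r = 0.24 for miR-142-3p with miR-146a (adjusted p = 0.42) and r = -0.10 for miR-223 with miR-146a (adjusted p = 0.68). Over all 3321 pairs of the 82 miRNAs detected on every array, the median r of such deviations was 0.062, with quartiles of -0.21 and 0.36.

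The relation of miR-142-3p and miR-223 was weaker without the low-signal array, with r = 0.54 (adjusted p = 0.0678 by permutation), and with group means taken within each scan day, which leaves 18 arrays, with r = 0.46 (adjusted p = 0.243). On the 16 such arrays of the first scan day r was 0.48 (adjusted p = 0.267). On the same arrays miR-142-3p with miR-146a had r = 0.49 within each scan day (adjusted p = 0.243 by permutation). On the first scan day that r was 0.61 (adjusted p = 0.267). With scan day respected, the r of miR-142-3p was thus no larger with miR-223 than with miR-146a. In each of the 6 groups with an array of the third scan day, that array had the highest miR-142-3p of its group. For miR-223 this was so in 4 of 6 groups and for miR-150 in 3. These counts include 1/3 PH at 12 h, where that array was the low-signal array. There miR-150 was not detected, and its value was only the floor of 24.3. Within-group permutation over all arrays does not take scan day into account. On the levels themselves, with group means kept, r was 0.43 (permutation p = 0.0305, adjusted p = 0.0914) and rho 0.40 (permutation p = 0.0460). The level of miR-223 had r = -0.50 with the array's 75th percentile, and -0.10 without the low-signal array. The part of array brightness in the relation was not tested.

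The pairs with miR-150 were added after the data were seen and were adjusted apart from the pairs above. miR-150 was compared over the 25 arrays where it was detected, although on replicate 2 of 2/3 PH at 6 h it stood at the floor. Its deviations from the group means ran with those of miR-142-3p at r = 0.74 (permutation p = 0.00344, adjusted p = 0.0103 over 3 pairs) and rho = 0.71 (permutation p = 0.00306). Without the 2 arrays farthest from the median r was 0.67, and leaving out each array in turn gave 0.56 to 0.78. With group means taken within each scan day, over 18 arrays, r was 0.73 (permutation p = 0.0262, adjusted p = 0.0709) and rho 0.73 (adjusted p = 0.0445), so that the call of r was lost at a similar size. With miR-223 r was 0.49 (adjusted p = 0.0537) and with miR-146a 0.35 (adjusted p = 0.0658). Within each scan day r was 0.45 with miR-223 (adjusted p = 0.170 by permutation). With miR-146a it was 0.45 (adjusted p = 0.0709) and rho 0.62 (adjusted p = 0.0445). On the levels, miR-150 had r = 0.48 with miR-142-3p (adjusted p = 0.0221) and r = 0.54 with miR-146a (adjusted p = 0.0159, by permutation).

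**Figure D4:**
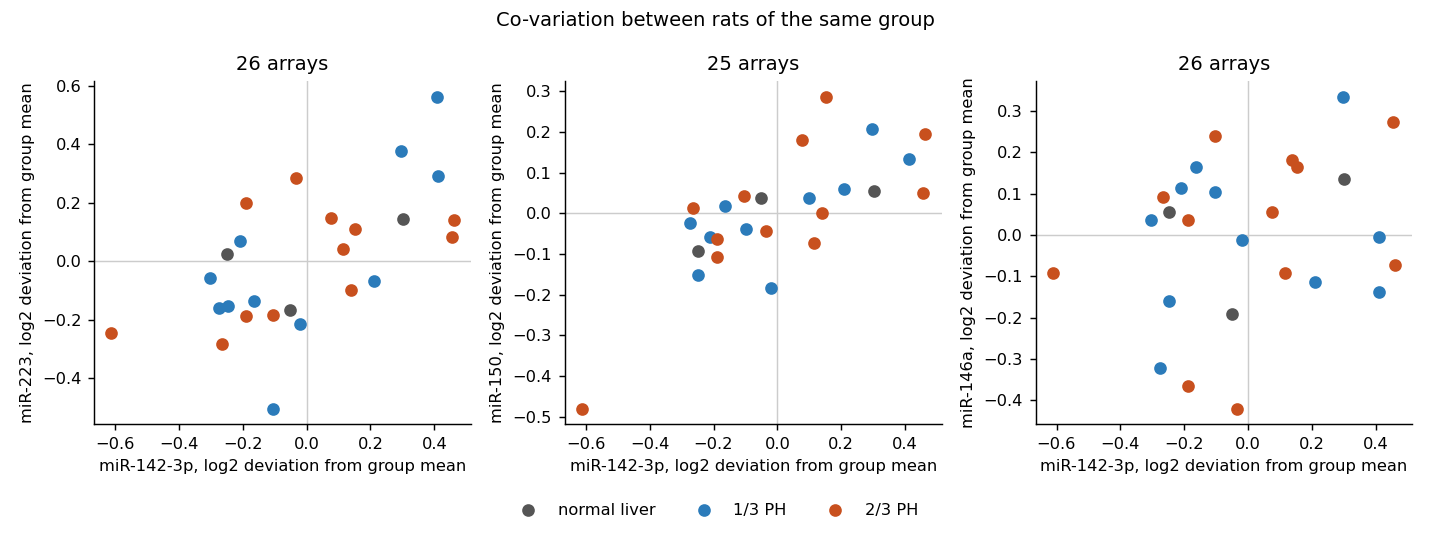
Deviation of miR-142-3p from its group mean (x axis, log2) against that of miR-223 (26 arrays), miR-150 (25 arrays) and miR-146a (26 arrays) (y axes, log2); points are arrays, coloured by operation. The points of miR-223 and miR-150 climb with those of miR-142-3p, at r = 0.62 and 0.74, and those of miR-146a scatter, at r = 0.24. With group means taken within each scan day (18 arrays, not drawn), r was 0.46 for miR-223, 0.73 for miR-150 and 0.49 for miR-146a.

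The miRNAs outside the set whose levels were most like each member's were listed from the 79 others detected on every array, by Pearson r over 26 arrays, as a description. For miR-142-3p these were miR-140 (r = 0.48), miR-192 (r = 0.46) and miR-140* (r = 0.45). Its r with miR-223 on the levels was 0.43. With group means removed, r was 0.56, -0.04 and 0.50 for these neighbours, and 0.62 for miR-223. For miR-223 they were miR-30c (r = 0.50), miR-23a (r = 0.46) and miR-30a* (r = 0.45), which were 0.20, 0.36 and 0.15 without the low-signal array. With group means removed, over all 26 arrays, they were 0.56, 0.42 and 0.44. For miR-146a they were miR-26b (r = 0.71), miR-511* (r = 0.71) and miR-26a (r = 0.69), and 0.49, 0.53 and 0.56 with group means removed. Of these neighbours, miR-26a fell at 36 h after 2/3 PH by 0.64 on the log2 scale, both against normal liver (adjusted p = 0.0004) and against 6 h (adjusted p = 0.0003). miR-26b fell by 0.35 at 36 h against 6 h (adjusted p = 0.0148), and miR-30a* by 0.59 (adjusted p = 0.0170). The gene of miR-511 lies within the span of Mrc1, the macrophage mannose receptor. miR-511* fell after 2/3 PH by 0.69 on the log2 scale at 36 h against normal liver (adjusted p = 0.0142) and by 0.88 at 36 h against 6 h (adjusted p = 0.0023). These calls stand beside 18.8% and 28.5% of all miRNAs called. The neighbours were picked by their r with a member on the same arrays, group differences included. That choice favours miRNAs that change where the member changes, so their calls are no separate evidence on the member. The part of macrophages in the fall of miR-511* was not tested. All of these levels share their arrays, slides and scaling.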

How the data were processed

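Per the labels, total RNA of 26 right liver lobes (1 rat per array) was hybridised to single-colour Agilent rat miRNA arrays and read with Feature Extraction. The deposited intensity values, background-corrected by the authors' scanner software, were used spot by spot. The authors also deposited a table of normalized log2 values with 699 rows, in which the 104 highest values recur identically in every column. Its normalization is not given in the sources used here, and it served only as an alternative.

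Unflagged spots of a probe were averaged, probes of a miRNA summed, arrays scaled to their 75th percentile over 109 shared probes, values floored and log2 taken. The 144 miRNAs that the software called present throughout some group were fitted with limma (version 3.58.1, R 4.3.3) in 1 model of 9 groups with no covariate. p-values were adjusted by the Benjamini-Hochberg method within each of 15 comparisons, at a threshold of 0.05. Correlations used 100000 permutations, two-sided, within groups for deviations from group means (Python 3.11.15, scipy 1.17.1). Replicates were separate rats. At most 7.86% of spots on an array were left out by the software's outlier calls. The number of arrays and spots limits the precision.

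The members and lists were chosen with earlier results of these data known. The rule for named miRNAs was the 6 members, the 3 most like each member detected on every array, and other immune-associated or cell-type marker miRNAs where called or where a sentence turns on them. Alternatives covered scaling, floor, background, probe summary, detection call, filter, blocks by slide and scan day, the deposited log2 values, the model and each array left out. Added after the data were seen were each probe alone, fits without the low-signal array, group means taken within scan days, and the pairs with miR-150. Calculations across miRNAs were first tested on simulated data.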

Additional observations from a re-analysis of the deposited data

Results flagged for a closer look

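For 2 miRNAs the effect of 2/3 PH differed between 36 h and 6 h, by the test of that difference itself. miR-146a was lower at 36 h than at 6 h by -0.55 on the log2 scale (adjusted p = 0.0319 by limma), and miR-150 by -0.45 (adjusted p = 0.0330), against 28.5% of all miRNAs called in that comparison. Normal liver lay between the 6 h and 36 h means of miR-146a and above both of miR-150. The miR-150 value of replicate 2 at 6 h was its array's floor. Both calls were lost with slide as a random or fixed block, that of miR-146a also with scan day as a block (adjusted p = 0.39), and both without single arrays (adjusted p up to 0.212 for miR-146a and 0.145 for miR-150). The interaction of operation and time passed the test for neither. No group held 4 arrays or more, so single arrays were not checked as outliers of their group.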

How the results depend on the processing

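No paired analysis was possible because each array held a different rat and the labels give no pairing between groups. Against normal liver, 3 tests passed, and 1 did with no scaling, with a floor of 1 signal unit, with the deposited log2 values or with only miRNAs detected on every array, and 0 with normexp, with slide as a fixed block (24 h could not be estimated) or with the dimmer probe alone (miR-150 left out). With the dimmer probe, miR-142-3p stood at the floor on every array of 2/3 PH at 24 h. Leaving out each array gave 1 to 4. Between 2/3 PH and 1/3 PH, 0 passed, and 2 with the 75th percentile over all probes. Leaving out each array gave 0 to 0. For 36 h against 6 h, 2 passed. There 6 passed with the 75th percentile over all probes, 1 with total signal, quantile normalization, the floor of 1, the brightest probe, the deposited values, miRNAs detected on every array, scan day as a block, a variance trend, only the groups compared, the brighter probe or the dimmer probe, and 0 with no scaling (with or without the low-signal array), normexp, miRNAs detected on at least 1 array, or slide as a random or fixed block. Leaving out each array gave 0 to 2. The r of miR-142-3p with miR-223 was 0.62, 0.48 with the software's gene signal, 0.49 with the deposited values, 0.48 within the first scan day, 0.46 with group means taken within each scan day and 0.54 without the low-signal array, and each array left out gave 0.54 to 0.68. It lost its call without 4 arrays: replicate 2 of 1/3 PH at 12 h, 1 of 2/3 PH at 12 h (0.59), 3 of 1/3 PH at 24 h (0.57) or 1 of 1/3 PH at 36 h (0.58).

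Among results with an unadjusted p under 0.05, signs turned under 2 settings, in comparisons whose median over all miRNAs these settings moved. Differences nearer 0 turned more often, up to 8 of 45 settings for miR-146a at 12 h after 1/3 PH. With normexp the log2 difference from normal liver was 0.28 for miR-142-3p at 12 h after 1/3 PH (median of all miRNAs 0.50), 0.37 at 6 h after 2/3 PH (0.59) and 0.44 at 36 h (0.64), where miR-150 was at 0.60. With the 75th percentile over all probes, miR-150 at 6 h after 1/3 PH was at 0.70 (1.24) and the interaction of miR-146a at 1.02 (1.65). Each of these 6 values lay below its median. The called falls of miR-142-3p at 24 h and of miR-150 at 24 h and 36 h held in 38 of 44, 30 of 42 and 37 of 43 other settings, and those of miR-146a and miR-150 between 6 h and 36 h in 32 of 45 and 24 of 43. miR-142-3p at 36 h passed under 3 settings.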
